A study of Homo sapiens with 2 samples.

Results

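The genes described here carry signals of the transforming growth factor beta (TGF-beta) family from the receptor to the nucleus: SMAD2, SMAD3, SMAD4, SMAD5, SMAD6, SMAD7, the co-repressor gene SKIL and the decoy receptor gene BAMBI. They were chosen by gene symbol in the array's platform annotation. All 8 had a named probe set, 1 each, among the 14884 genes named on the array. RNA came from cultures of AsPC-1, a human cell line established from a pancreatic adenocarcinoma, whose cells were overlaid with collagen gel so that they grew in 3 dimensions. The compressed culture was held at 2.9 mmHg for 24 h, and the uncompressed culture was kept for 24 h without this load. Both RNAs were read on the whole-transcript array Human Gene 2.0 ST, 1 array for each culture, which gives a log2 level per probe set. With 1 array per condition there is no estimate of the spread between cultures and no difference below has a test or a p-value. Precision is limited by this number of arrays. Levels and differences are on the log2 scale of the deposited signals, and each difference is compressed minus uncompressed. In bulk RNA, fewer cells carrying a transcript and less transcript per cell cannot be told apart.

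TGF-beta and activin ligands act through receptors that phosphorylate SMAD2 and SMAD3, and bone morphogenetic proteins (BMPs) act through receptors that phosphorylate SMAD1, SMAD5 and SMAD9. These receptor-activated SMADs join SMAD4 and bind DNA in the nucleus, while SMAD6 and SMAD7 are inhibitory members that block the receptors or the complex. SKIL encodes SnoN, which represses SMAD complexes on DNA and is itself a TGF-beta target. BAMBI encodes a membrane protein that resembles a type I receptor but has no kinase domain, and it is known to damp TGF-beta and BMP signals. SMAD6, SMAD7, SKIL and BAMBI thus all restrain the pathway, and SMAD4 is a frequent target of loss or mutation in pancreatic cancer. AsPC-1 is known to carry a missense change in SMAD4, and a level of its RNA says nothing about the protein's function.

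Promoter sequence is shown for the 3 genes with the largest differences, BAMBI, SMAD3 and SMAD7, and for SMAD6, the only gene of the 8 with a palindromic SMAD-binding element in its window. Each run holds the 250 bases before the outermost RefSeq start of the gene (GRCh38.p14), 5′ to 3′ on the gene's strand. Capitals mark matches to GTCTAGAC (the palindromic element), CAGAC (a SMAD box) or GGCGCC (a GC-rich element of BMP-responsive promoters), searched on both strands. The motifs did not overlap one another in these 4 windows. SMAD3 and SMAD7 have further starts in RefSeq that are not shown.
BAMBI (chr10:28677271-28677520, plus strand): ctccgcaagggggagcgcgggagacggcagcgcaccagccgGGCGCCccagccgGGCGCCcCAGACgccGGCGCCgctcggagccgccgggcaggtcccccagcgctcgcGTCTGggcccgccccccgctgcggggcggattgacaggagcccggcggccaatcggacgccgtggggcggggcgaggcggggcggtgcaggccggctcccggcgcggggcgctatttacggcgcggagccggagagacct
SMAD3 (chr15:67065352-67065601, plus strand): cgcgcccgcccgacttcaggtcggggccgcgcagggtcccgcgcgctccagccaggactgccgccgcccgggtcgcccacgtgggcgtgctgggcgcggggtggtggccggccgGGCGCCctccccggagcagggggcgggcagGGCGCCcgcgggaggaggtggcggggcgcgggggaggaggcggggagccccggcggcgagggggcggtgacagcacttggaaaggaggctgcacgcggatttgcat
SMAD7 (chr18:48950966-48951215, minus strand): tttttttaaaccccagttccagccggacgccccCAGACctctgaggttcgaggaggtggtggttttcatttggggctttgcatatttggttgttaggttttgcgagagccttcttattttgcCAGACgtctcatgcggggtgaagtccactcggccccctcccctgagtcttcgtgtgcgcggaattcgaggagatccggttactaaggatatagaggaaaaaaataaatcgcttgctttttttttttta
SMAD6 (chr15:66701986-66702235, plus strand): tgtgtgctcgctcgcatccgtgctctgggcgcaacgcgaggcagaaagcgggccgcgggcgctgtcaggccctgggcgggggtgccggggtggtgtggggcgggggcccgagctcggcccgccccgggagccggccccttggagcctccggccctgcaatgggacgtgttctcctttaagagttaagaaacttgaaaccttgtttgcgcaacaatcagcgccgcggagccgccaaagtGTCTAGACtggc

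The BAMBI window held 3 copies of GGCGCC and 2 SMAD boxes, 1 of them in the reverse orientation, and was 81.2% G or C. The SMAD3 window held 2 copies of GGCGCC and no SMAD box, and the SMAD7 window held 2 SMAD boxes and no GGCGCC. In SMAD6 the palindromic element lay 5 to 12 bases before the start. Among 35116 RefSeq promoter windows of the same length, 0.182% held GTCTAGAC, 38.0% held CAGAC and 16.4% held GGCGCC, at a median of 58% G or C. The site CTTTGAT, bound by the TCF/LEF factors of the WNT pathway, was in none of the 8 windows and in 2.26% of all windows. Letters matching a motif are a description of sequence and are not evidence of binding.

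The compressed culture had a lower level of BAMBI, while the 4 SMAD genes and SKIL that passed the level filter differed by less than 1.5-fold. BAMBI had a level of 7.79 in the compressed culture and 8.55 in the uncompressed culture, which was 1.69-fold lower (difference -0.76). A gene passed the filter where its mean level over both arrays was at or above 4.79, the median over named genes, and 6 of the 8 did. Of these 6, 0 were at least 1.5-fold higher, against 3.95% of all 7442 genes that passed the filter, and 1 was at least 1.5-fold lower, against 1.12%. The median difference of the 6 genes was 0.01, and that of all genes that passed was also 0.01.

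**Figure D1:**
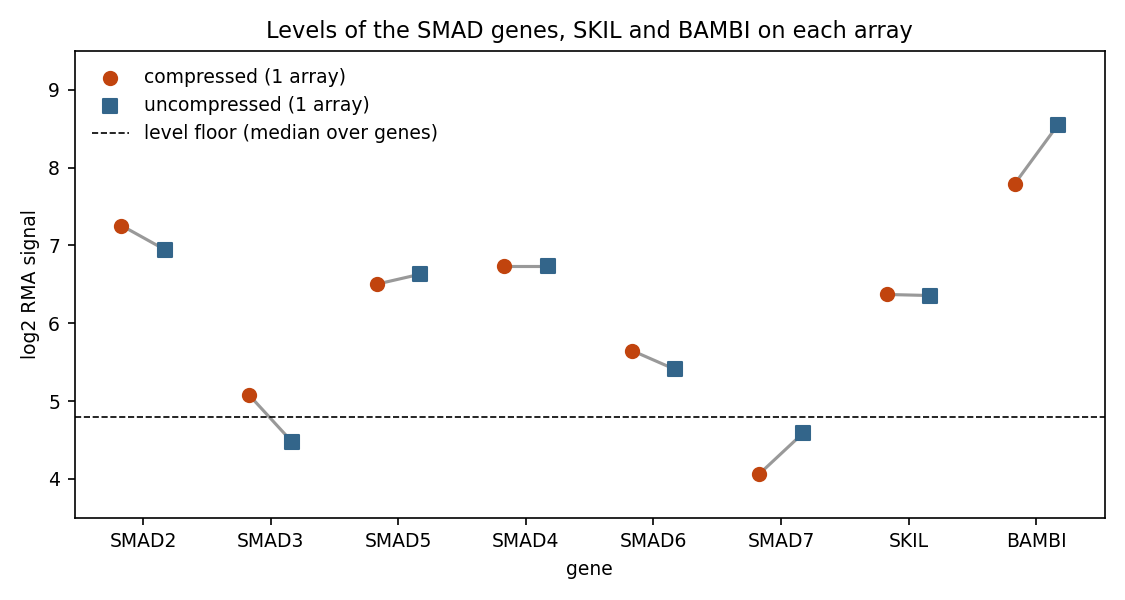
Log2 RMA signal of each gene on the compressed array (circles) and the uncompressed array (squares), with the dashed line at the level filter of 4.79. BAMBI was at 7.79 on the compressed and 8.55 on the uncompressed array, and SMAD7 lay under the line on both.

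BAMBI's difference ranked 26th from the lowest of the 7442 genes. Among 391 named genes whose mean level was within 0.25 of its own, 2, BAMBI included, were lower by as much or more, and the central 50% of these genes differed by -0.16 to 0.12. As a guide to measurement error within an array, 150 protein-coding genes with exactly 2 different probe sets above the filter gave an SD of 0.185 for the difference of a single probe set. This SD does not cover the variation between cultures. Likeness to BAMBI could be measured only as closeness of the difference over 2 arrays. The 3 protein-coding genes nearest to it were ACSM3 at -0.76, C1QTNF9 at -0.76 and EDAR at -0.78. EDAR encodes a receptor of the tumour necrosis factor receptor superfamily, and ACSM3 a mitochondrial medium-chain acyl-CoA synthetase.

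Of the receptor-activated SMADs, SMAD2 had a level of 7.25 in the compressed culture and 6.94 in the uncompressed culture (difference 0.31). SMAD2 transmits TGF-beta and activin signals. Of 822 named genes at a like level, 13.7% were higher by as much or more, so the SMAD2 value is a common one on these arrays. SMAD5, which transmits BMP signals, had a level of 6.50 in the compressed culture and 6.63 in the uncompressed culture (difference -0.13). Of 979 genes at a like level, 23.4% were lower by as much or more.

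SMAD3 shares its receptors with SMAD2 and binds DNA directly. Its level was 5.08 in the compressed culture and 4.47 in the uncompressed culture, and its difference of 0.61 was the largest positive one of the 8 genes. The mean of 4.77 lay 0.02 below the filter, so SMAD3 is in none of the counts above. Whether the uncompressed level was above background is unknown, and no fold is given. Among 1405 named genes at a like level, 58 (4.13%) were higher by as much or more, SMAD3 included. With no level filter, SMAD3 passed the 1.5-fold size (1 of 8 genes, against 3.76% of 14884 named genes) and BAMBI was the 1 lower gene (against 2.83%). SMAD3 and SMAD2 thus both had positive differences, though SMAD3 was above the filter on the compressed array alone. SMAD5 was negative by less than the probe set SD of 0.185 in the values as deposited. After a repeated quantile normalization its difference was -0.20.

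SMAD4, the shared partner of the receptor-activated SMADs, had exactly the same deposited value on both arrays, 6.73, so its difference was 0.00. The same held for 182 of the 7442 genes that passed the filter (2.45%), among them LTBP2, STRAP and LEMD3 of the lists below. How equal values arose was not tested.

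The inhibitory SMADs had differences of opposite sign. SMAD6, which mainly restrains BMP signals, had a level of 5.65 in the compressed culture and 5.41 in the uncompressed culture (difference 0.24), and 20.8% of 1261 genes at a like level were higher by as much or more. SMAD7, a feedback inhibitor that binds TGF-beta receptors, had a level of 4.06 in the compressed culture and 4.59 in the uncompressed culture. Its difference was -0.52, the second negative one in size after BAMBI. SMAD7 lay under the filter on both arrays, so its signal may be near background and no fold is given. Among 1470 genes at a like level, 78 (5.31%) were lower by as much or more. SKIL had a level of 6.37 in the compressed culture and 6.36 in the uncompressed culture, and its difference of 0.01 was smaller than the probe set SD. The 4 genes that restrain the pathway therefore had no shared direction: BAMBI and SMAD7 were negative, SMAD6 was positive and SKIL was near 0.

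**Figure D2:**
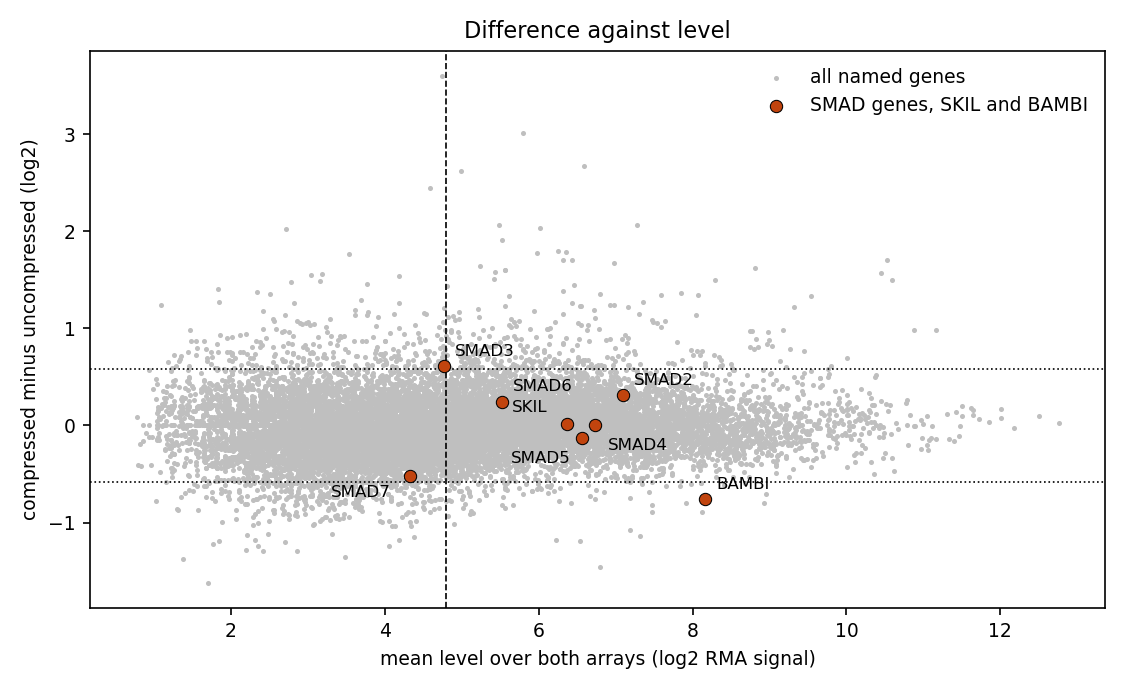
Difference (compressed minus uncompressed, log2) against the mean level over both arrays for 14884 named genes (grey) and the 8 genes described (red), with dotted lines at 1.5-fold and a dashed line at the level filter. BAMBI at -0.76 lies at the lower edge of the genes of its level, whereas SMAD3 at 0.61 and SMAD7 at -0.52 lie among dimmer genes that spread more widely.

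Relatives of these genes were mostly too dim for a fold to be given. SKI, a co-repressor related to SKIL, had a level of 5.63 in the compressed culture and 5.37 in the uncompressed culture (difference 0.25). SMAD1 was at 4.24 in the compressed and 4.27 in the uncompressed culture, and SMAD9 at 4.46 in the compressed and 4.68 in the uncompressed culture, all under the filter. The antisense gene SMAD5-AS1 was at 3.37 in the compressed and 3.82 in the uncompressed culture, and was read after the values were seen. BMP-activated SMADs thus gave differences between -0.21 and -0.02. SMAD5, the 1 above the filter, was at -0.13 as deposited, smaller in size than the probe set SD of 0.185. It was at -0.20 after a repeated quantile normalization.

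Ligands of the family were sparsely measured above the filter. Of 14 TGF-beta, activin and related ligands, 6 were named and 2 passed: GDF15, a stress-responsive member, differed by -0.29 and GDF1 by -0.28. None of TGFB1, TGFB2, TGFB3 and INHBA had a named probe set and they were not analysed here. Of 18 genes of the BMP and GDF list, all were named and 4 passed. Of these 4, 1 was at least 1.5-fold higher, against 3.95% of all genes that passed, and 1 at least 1.5-fold lower, against 1.12%. The higher one was BMP1, which encodes a procollagen-processing protease and not a ligand, at 5.72 in the compressed and 4.90 in the uncompressed culture (1.76-fold). The lower one was BMP8A, at 5.29 in the compressed and 5.88 in the uncompressed culture (1.51-fold lower). BMP8A has a near-identical paralog, BMP8B, which was under the filter and differed by 0.32, so the division of signal between them is uncertain. BMP7 differed by -0.43. BMP4, at 10.20 in the compressed and 10.23 in the uncompressed culture, differed by -0.03.

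Receptors were the least covered class, with 2 of 14 genes named. The co-receptor gene ENG (endoglin) had a level of 6.20 in the compressed and 6.12 in the uncompressed culture, and ACVRL1, a type I receptor gene known from endothelium, was under the filter with a difference of -0.15. The other 12 receptor genes listed were not analysed here.

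Extracellular antagonists had a median difference of -0.03 over the 6 of 15 named genes that passed the filter. TWSG1, a secreted modulator that binds BMPs together with chordin, was at 8.11 in the compressed and 8.72 in the uncompressed culture (1.53-fold lower, difference -0.61). It was the 1 of these 6 genes at least 1.5-fold lower, against 1.12% of all genes that passed the filter. NOG, the BMP antagonist noggin, differed by 0.52 and FSTL3, a follistatin-like activin antagonist, by 0.38. CHRDL2 differed by -0.14, SOST by -0.04 and GREM1 by -0.02. No direction was shared by this list.

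Among genes that hold TGF-beta latent or release it, THBS1 had the largest difference. THBS1 encodes thrombospondin-1, which can activate latent TGF-beta, and its level was 7.28 in the compressed and 5.58 in the uncompressed culture (3.27-fold). It was the 1 of 6 genes past 1.5-fold (against 3.95% of all), and the median of the list was 0.22. That median was 0.10 over all 8 named genes and 0.68 over the 2 genes that passed the stricter filter. FURIN, a protease that cleaves the TGF-beta precursor, differed by 0.40. The latent TGF-beta binding protein genes LTBP4, LTBP3, LTBP2 and LTBP1 differed by 0.24, 0.21, 0.00 and -0.34.

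Nuclear cofactors and turnover genes that passed the filter differed by less than 1.5-fold, and positive differences outnumbered negative ones. Over all genes that passed, 50.8% were positive and 46.8% negative. Of the same genes, 3.95% were at least 1.5-fold higher and 1.12% at least 1.5-fold lower, so 0 of 9 in a list says little about it. Of 9 cofactors and co-repressors that passed the filter, 0 passed 1.5-fold, 6 were positive and 2 negative, with a median of 0.22. With no level filter the median of the 15 named genes was 0.03, with 8 positive and 6 negative. The co-activator genes CREBBP and EP300, whose products acetylate histones with SMAD complexes, differed by 0.53 and 0.29, and ZBTB7A by 0.44. TRIM33, which binds SMAD2 and SMAD3, differed by 0.22, HGS by 0.03, FOXH1 by -0.07 and TGIF1, a SMAD co-repressor, by -0.18. RUNX1, RUNX2, RUNX3 and ZNF423 were under the filter, with RUNX3 at 2.91 in the compressed and 3.83 in the uncompressed culture. Of 9 named turnover genes, all passed the filter, 0 passed 1.5-fold, and 6 were positive, with a median of 0.17. ITCH differed by 0.39, the SMAD ubiquitin ligase genes SMURF1 and SMURF2 by 0.38 and 0.17, and RNF111, whose product degrades SKIL and SMAD7 proteins, by 0.28. USP15 differed by -0.04 and WWP2 by -0.10.

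The list of TGF-beta and SMAD3 targets had 9 genes above the filter, of which 8 had a positive difference and 0 a negative one. Over all genes that passed the filter, 50.8% were positive and 46.8% negative. The median of the list was 0.34, against 0.01 over all these genes. THBS1, also in the list above, and HMGA2, a chromatin protein gene, passed 1.5-fold in the positive direction, and 0 passed in the negative direction (2 of 9 genes higher, against 3.95% of all). HMGA2 was at 6.82 in the compressed and 6.18 in the uncompressed culture (1.56-fold), but was under the 1.5-fold size after repeated quantile normalization. JUNB, an AP-1 factor gene, at 0.58, lay just under the 1.5-fold size, and SNAI2, an epithelial-mesenchymal transition factor gene, differed by 0.54. CCN2, IL11, ANGPTL4 and KLF10 differed by 0.34, 0.27, 0.17 and 0.16. CCN2 was at 5.00 in the compressed and 4.66 in the uncompressed culture. Its uncompressed level was under the filter, so the size of its difference, which is also the list median, is uncertain. Of the 22 listed genes 10 had no named probe set, TGFBI among them, and many of the named ones also answer to other pathways. SMAD7, SKIL and BAMBI, themselves known targets of the pathway, were not counted in this list.

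The BMP target genes that passed the filter had small differences, at mean levels of 5.12 to 5.33, not far above it. Of 10 named genes, 3 passed the filter, with HAMP at 0.15, MSX1 at 0.09 and MSX2 at 0.08, and 0 passed 1.5-fold. Over all genes that passed the filter, 3.95% were at least 1.5-fold higher and 1.12% lower, so 0 of 3 says little about the list. ID1, ID2, ID3 and ID4, the best known BMP targets, had no named probe set and were not analysed here.

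BAMBI is also known as a target of beta-catenin in colorectal cancer cells, so targets of the WNT pathway were listed beside it. Of 15 named genes, 13 passed the filter, 7 were negative and 6 positive, with a median of -0.15. This median was 0.10 with the stricter level filter at the 75th percentile (5 genes), so it has no settled sign. AXIN2, a feedback inhibitor in the beta-catenin destruction complex, was at 4.57 in the compressed and 5.22 in the uncompressed culture. Its difference was -0.65. Of the 13 genes it was the 1 at least 1.5-fold lower, against 1.12% of all genes that passed the filter. The compressed level of AXIN2 was under 4.79, so the size of its difference is uncertain. Other feedback inhibitor genes were NKD1 at -0.36, NKD2 at -0.30, ZNRF3 at -0.28 and RNF43 at -0.27, whereas NOTUM was at 0.11. NKD2 and ZNRF3 were also under the filter on the compressed array. DKK1, a secreted WNT antagonist gene that beta-catenin and other factors induce, was at 8.71 in the compressed and 8.03 in the uncompressed culture (1.60-fold higher). It was the 1 of 13 genes at least 1.5-fold higher, against 3.95% of all genes that passed. The cell surface gene CD44 differed by 0.54. LGR5, CCND1 and SOX9 differed by 0.04, 0.09 and 0.10, and MYC by -0.19.

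**Figure D3:**
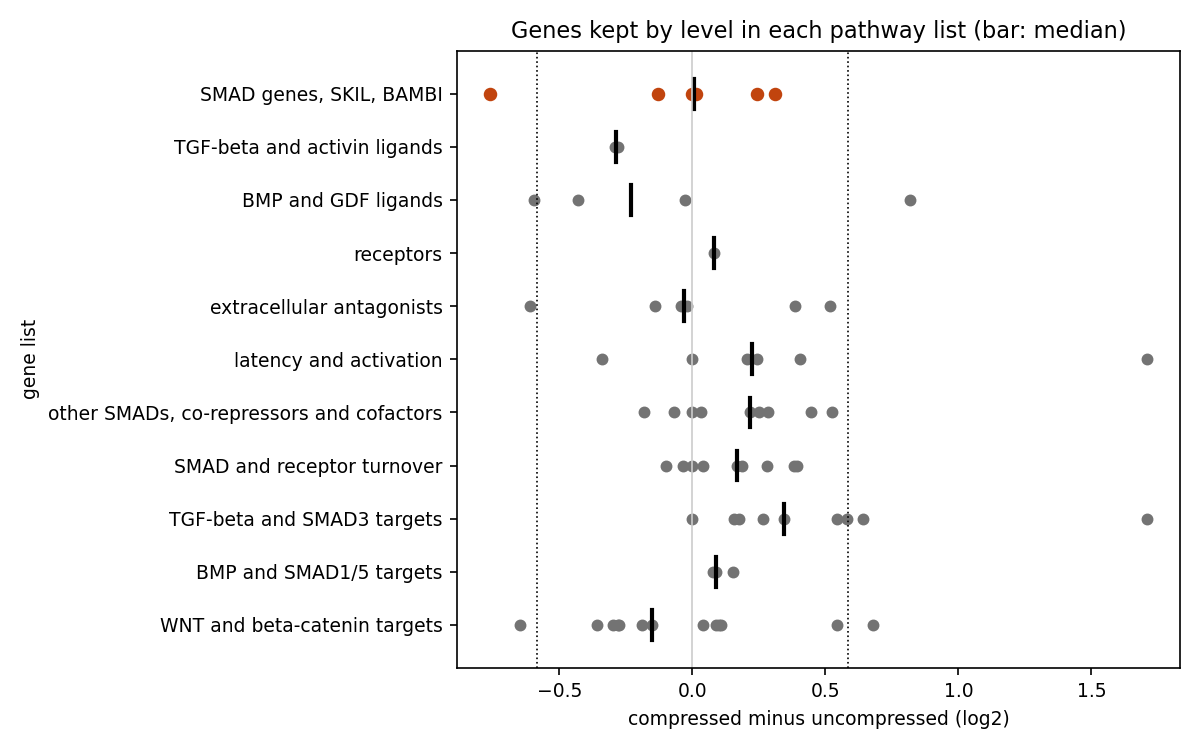
Differences (compressed minus uncompressed, log2) of genes that passed the level filter, for the SMAD genes, SKIL and BAMBI (red) and for each of 10 pathway lists (grey), with the median as a bar and dotted lines at 1.5-fold. BAMBI at -0.76 is the lowest point of all rows, and THBS1 at 1.71, in 2 lists, the highest.

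Over the 2 arrays as a whole, probe set levels had a median of 3.72 in the compressed and 3.75 in the uncompressed culture and a Pearson correlation of 0.978 across probe sets, which are not independent replicates. Markers of duct-type epithelium fitted the labelled line in part: KRT18, KRT19, CEACAM6 and EPCAM were between 10.4 and 11.7 on the compressed and between 10.8 and 11.5 on the uncompressed array, whereas 5 of the 13 named markers (AGR2, TFF2, CLDN4, S100P and KRT7) were under the filter. AGR2, at 2.81 on the compressed and 4.16 on the uncompressed array, had the largest difference of these markers in size, -1.35. Of 12 fibroblast markers, 3 were named: DCN was at 1.82 on the compressed and 1.79 on the uncompressed array, THY1 differed by 0.22, and LUM was at 9.39 on the compressed and 9.75 on the uncompressed array. Of 8 leukocyte markers, 5 were named, with LYZ and CD68 above the filter and CD14, CSF1R and NKG7 under it. CD68 was 1.75-fold higher in the compressed culture. Of 6 endothelial markers, 4 were named, and VWF, PECAM1 and KDR were under the filter. CLDN5 passed it, at 5.15 on the compressed and 5.22 on the uncompressed array. The part of other cell types in the results above was not tested.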

How the data were processed

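The deposited values are log2 signals per probe set, which the authors made with the Transcriptome Analysis Console by RMA, as the submitters' processing notes name them; tool versions and the genome build are not stated there. RMA equalises the distributions of the arrays, so a change shared by all genes is removed, and it shrinks differences near background. No detection calls were used here. Groups came from the treatment label of each sample.

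The platform annotation named 16098 of 53617 probe sets, all matched to current symbols through RefSeq (GRCh38.p14); the other 37519 are unnamed here. For the 779 genes with several probe sets the one with the highest mean was used. Genes with a mean at or above 4.79 were kept (7442 of 14884). No test could be made with single arrays, and differences were counted at 1.5-fold (0.58 on the log2 scale). The genes and the 10 lists were chosen with earlier results of these data known. Named in the text are all 8 genes, relatives named by the annotation and the 3 genes nearest to BAMBI in difference. Each list's genes past 1.5-fold and up to 3 in each direction are also named. Other list genes were chosen after their values were seen, and some lists are not shown in full. The alternatives were other level filters, protein-coding genes alone, the mean over probe sets, a loess correction (span 0.3), median centring, repeated quantile normalization and sizes of 2-fold and of 0.32 on the log2 scale. Computations used Python 3.11.15, NumPy 2.4.6, pandas 2.3.3, statsmodels 0.14.6 and matplotlib 3.10.9.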

Additional observations from a re-analysis of the deposited data

How the results depend on the processing

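Only loess correction, centring and repeated quantile normalization can move the difference of a gene with 1 probe set. Over these 3 and the values as deposited, BAMBI's difference lay between -0.77 and -0.75, SMAD3's between 0.60 and 0.64, SMAD7's between -0.53 and -0.46, SMAD2's between 0.27 and 0.31, SMAD6's between 0.20 and 0.24 and SMAD5's between -0.20 and -0.13. SKIL and SMAD4 were as low as -0.07 after repeated quantile normalization, so neither has a settled sign, and the median of the kept genes of the group moved between -0.07 and 0.01. The count of higher genes in the group was 1, SMAD3, in place of 0 with no level filter, with the mean of all probe sets (which lowers the filter) and where the brighter array alone had to pass. That last setting was added after the data were seen, and SMAD3 enters it through its compressed value alone, so it gives no support to the SMAD3 difference. The count of lower genes was 0 at 2-fold. Of the 60 kept genes of the pathway lists, 4 were higher and 3 lower at 1.5-fold, against 3.95% and 1.12% of all kept genes. At 2-fold 1 and 0 of the 60 were, and at a size of 0.32 on the log2 scale 15 and 6. With a filter at the 75th percentile, 3 of 28 list genes were higher and 1 was lower. Over all 7442 kept genes, 294 were higher and 83 lower, against 71 and 6 at 2-fold and 1005 and 616 at 0.32. With no filter 560 and 421 of 14884 genes were, and with the filter at the 75th percentile 137 and 30 of 3721. Protein-coding genes alone, also added later, gave 247 and 67 of 6876. The medians of the WNT targets (-0.19 to 0.10) and of the receptors (-0.03 to 0.08) changed sign between alternatives. Those of the TGF-beta and SMAD3 targets lay between 0.34 and 0.58, of the latency and activation genes between 0.10 and 0.68, of the cofactors between 0.03 and 0.25 and of the BMP and GDF ligands between -0.33 and -0.03. Fewer or more genes tested, or another size, account by construction for the changes of the counts with filter or size. Rescaling also moved the counts of the same 7442 genes at 1.5-fold. Higher and lower genes were 239 and 106 after repeated quantile normalization, 277 and 90 after loess correction and 287 and 87 after centring. Repeated quantile normalization left 3 of the 60 list genes higher. No paired analysis was possible because each group has 1 array. Without detection calls or replicates, levels near or under the filter carry little precision.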
